A study of Mus musculus with 12 samples.

Results

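Spi1, Cebpa, Cebpb, Cebpd, Maf, Bhlhe40, Egr1, Egr2 and Klf4 encode 9 transcription factors of myeloid lineage control and of the immediate early response. They were taken by symbol from the 43280 genes of the deposited table, and all 9 were among the 12086 genes tested, those with at least 1 CPM, a read count scaled to library size, in at least 2 libraries. The measurement was RNA-seq of bone marrow-derived macrophages (BMDM) from C57BL6 mice, either wild type (wt) or Treml4-/-, that is without the myeloid receptor Treml4. All cells were differentiated with the growth factor M-CSF at 20 ng/ml. They were then unstimulated (M0) or treated with LPS, the bacterial lipopolysaccharide that Toll-like receptor 4 senses, at 100 ng/ml for 8 h (M1-8 h) or 12 h (M1-12 h). Each of the 6 groups held 2 biological replicates, which gave 12 libraries. The labels do not tie replicates to single animals, so p-values measure the spread between these libraries, and they give no time of vehicle treatment for M0.

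These factors work in layers. PU.1, the product of Spi1, is the ETS factor without which macrophages do not form, and C/EBP alpha, the product of Cebpa, directs progenitors to the granulocyte and monocyte lineage. C/EBP beta and C/EBP delta bind the same DNA element as C/EBP alpha and are known as inflammatory members of the family. The Egr genes are classical immediate early genes, switched on within minutes of a stimulus and then shut off by feedback, and c-Maf, Bhlhe40 and Klf4 are known to set the balance of inflammatory and anti-inflammatory cytokine genes in macrophages.

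Totals ran from 48008751 to 58500792 reads per library, so that 1 read was worth 0.0171 to 0.0208 CPM. Treml4 had 198 to 663 reads in the 6 wt libraries and 0 reads in the 6 Treml4-/- libraries, which allows a level of up to 0.0625 CPM there, for counting error only. All 9 macrophage markers were at 1 CPM or more at each time, with a summed level of 24713 to 32779 CPM in M0, 14623 to 18627 CPM at M1-8 h and 14873 to 16822 CPM at M1-12 h. Between M0 and M1-8 h, Lyz2, Csf1r, Cd68 and Adgre1 were lower, Fcgr1, Mertk and Itgam higher, and Cd14 and Mpeg1 overlapped. Lyz2 went from 10416 to 15208 CPM to 4019 to 6514 CPM, and Fcgr1 from 59.6 to 65.1 CPM to 1105 to 1332 CPM. The sum rests on its most abundant genes. A list of 9 neutrophil and granulocyte precursor genes summed to 49.5 to 162 CPM in M0, 73.1 to 111 CPM at M1-8 h and 49.2 to 67.6 CPM at M1-12 h. Mean sums in wt and Treml4-/- were 93.4 and 142 CPM in M0, 75.5 and 98.2 CPM at M1-8 h, and 54.4 and 62.0 CPM at M1-12 h. The part of this list in the results was not tested. T cell, B cell, erythroid, stromal, mast cell and dendritic cell lists summed to at most 7.71 CPM. With CPM scaling the median of all tested genes moved by -0.72 on the log2 scale at 8 h of LPS and by -0.76 at 12 h, so the changes from M0 of the 9 genes are also given under median of ratios scaling, which brings that median to -0.037 and -0.036. In bulk RNA, fewer cells of a type and less RNA per cell cannot be told apart.

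The genes lie on 8 chromosomes of GRCm38 (GENCODE M21). Spi1 (ENSMUSG00000002111.8, chr2:91082390-91115756, plus strand) has 7 exon blocks. The C/EBP genes have a single exon each, Cebpa at chr7:35119293-35121928, Cebpb at chr2:167688915-167690418 and Cebpd at chr16:15887286-15891031, all on the plus strand. Maf lies at chr8:115682942-115707794 and Klf4 at chr4:55527143-55532466, both on the minus strand, and Bhlhe40 at chr6:108660629-108666925 and Egr2 at chr10:67535475-67542188 on the plus strand. A gene on the opposite strand shares 312 of the 1504 exonic bases of Cebpb (Tmem189, at 188 to 339 CPM) and 562 of the 3746 exonic bases of Cebpd (Spidr, at 11.4 to 31.8 CPM). The libraries were stranded, but whether counting used the strand is not given in the sources used here, so reads in these shared bases may belong to either gene. Spi1, Egr1, Egr2 and Klf4 overlap no other gene in this annotation.

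RefSeq promoter windows were at hand for 4 of the 9 genes, and the 250 bases before a transcript start are shown for each, because their transcripts went in different directions under LPS: Cebpa and Egr2 fell, Cebpb rose, and Klf4 was lower at 8 h than at 12 h. Capitals mark matches, on either strand, to a TATA box (TATAAA), a CRE core (TGACG), an AP-1 site (TGANTCA), a C/EBP site (TTGCNNAA), a PU.1 site (GAGGAAGT), an EGR site (GCGNGGGCG), an E-box (CACGTG), a CArG box, the element of serum response factor, or an NF-kB site. All sequences run 5′ to 3′ on the strand of the gene, in build GRCm38.p6.
Cebpa, chr7:35119043-35119292, plus strand: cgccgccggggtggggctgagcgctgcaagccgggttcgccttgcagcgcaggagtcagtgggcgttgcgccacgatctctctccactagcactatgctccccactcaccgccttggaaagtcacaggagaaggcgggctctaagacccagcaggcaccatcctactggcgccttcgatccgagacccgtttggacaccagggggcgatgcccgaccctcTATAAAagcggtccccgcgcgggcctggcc
Cebpb, chr2:167688665-167688914, plus strand: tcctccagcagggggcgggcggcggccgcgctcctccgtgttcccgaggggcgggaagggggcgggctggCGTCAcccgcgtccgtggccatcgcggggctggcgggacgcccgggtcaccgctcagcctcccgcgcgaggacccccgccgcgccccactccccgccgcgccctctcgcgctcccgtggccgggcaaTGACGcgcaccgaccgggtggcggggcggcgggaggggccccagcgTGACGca
Egr2, chr10:67537619-67537868, plus strand, 1 of its 5 windows: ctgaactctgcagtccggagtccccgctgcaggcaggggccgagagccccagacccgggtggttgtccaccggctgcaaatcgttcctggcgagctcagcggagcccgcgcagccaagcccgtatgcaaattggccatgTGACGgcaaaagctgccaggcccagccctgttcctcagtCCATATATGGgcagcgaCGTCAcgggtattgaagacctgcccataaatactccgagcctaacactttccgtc
Klf4, chr4:55532476-55532725, minus strand: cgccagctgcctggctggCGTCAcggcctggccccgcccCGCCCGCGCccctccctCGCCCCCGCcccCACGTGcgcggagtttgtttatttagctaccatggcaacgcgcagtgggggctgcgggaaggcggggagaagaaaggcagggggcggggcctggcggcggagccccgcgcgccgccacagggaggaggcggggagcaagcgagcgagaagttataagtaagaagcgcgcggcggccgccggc

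The Cebpa window held a TATA box 30 to 25 bases before the start, a match found in 12.4% of the 32851 RefSeq windows of this length. The Cebpb window was 81.6% G and C and held 3 CRE cores, which 17.8% of all windows hold at least once. The Egr2 window shown held a CArG box 72 to 63 bases before the start, found in 1.47% of windows, between 2 CRE cores. The most upstream Egr2 window held neither a CArG box nor a CRE core. The next one held another CArG box and no CRE core. The Klf4 window held 2 EGR sites, found in 4.70% of windows, beside an E-box, found in 6.02%. None of the 4 windows shown held the AP-1 (6.75% of windows), C/EBP (9.56%), PU.1 (2.44%) or NF-kB (3.90%) letters. A match is a description of letters and not a bound site.

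On the log2(CPM + 1) scale, Cebpa and Egr2 fell most under LPS and Maf and Cebpb rose most, and Spi1 stayed the most abundant of the 9 transcripts at all 3 times, in CPM and per kilobase. The place of Cebpb rests on the pseudocount: in deposited log2 CPM, Egr1 changed by 1.79 and Cebpb by 1.63 at 8 h, and by 1.35 and 1.66 at 12 h. A gene is said to rise or fall here where the change was at least 1.4-fold and limma, run on log2(CPM + 1), gave an adjusted p below 0.05 (Benjamini-Hochberg), over 4 libraries against 4 with genotypes weighted equally. By this rule 8 of the 9 changed at 8 h, against 76.9% of all tested genes, 4 of them higher (background 17.1%) and 4 lower (background 59.8%). At 12 h it was 7 of 9 against 76.5%, with 3 higher (background 16.3%) and 4 lower (background 60.3%). Between 8 h and 12 h, 5 of 9 changed against 32.1%, with 2 higher (background 13.5%) and 3 lower (background 18.7%). The share that changed was thus near the background at 8 h and 12 h, and what sets the genes apart from each other is the direction and size described next.

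**Figure D1:**
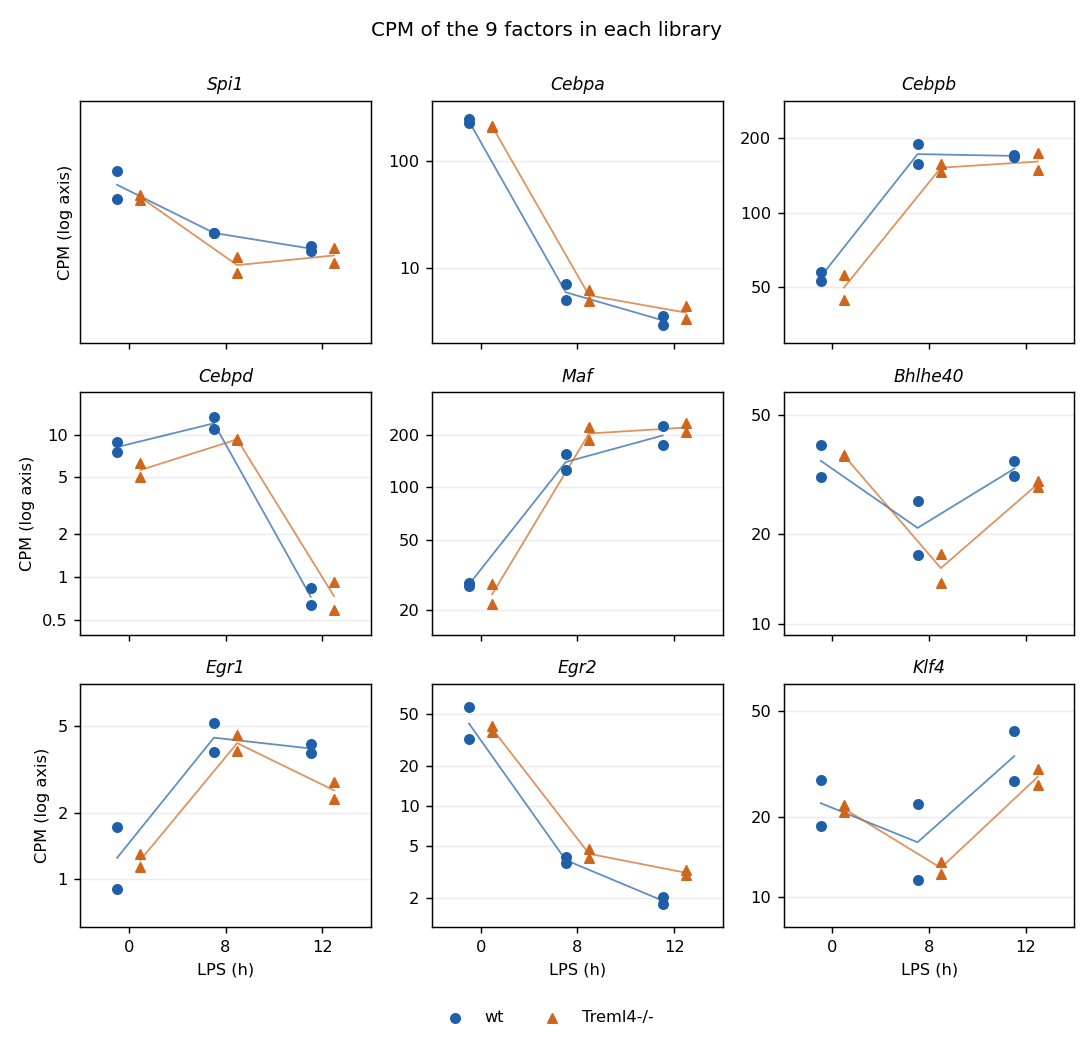
CPM of each of the 9 genes (log axis, own range per panel) at 0, 8 and 12 h of LPS, with 1 point per library, 2 libraries per genotype and time, and lines through the geometric means. Cebpa falls from 208 to 244 CPM in M0 to 2.97 to 4.43 CPM at M1-12 h, and Cebpd peaks at M1-8 h.

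Spi1, the gene of PU.1, was at 534 and 626 CPM in wt and 546 and 531 CPM in Treml4-/- M0 libraries. At M1-8 h it was at 438 and 438 CPM in wt and 381 and 348 CPM in Treml4-/-, and at M1-12 h at 406 and 395 CPM in wt and 369 and 402 CPM in Treml4-/-. Every LPS library was thus below every M0 library on the CPM scale. The log2 change was -0.48 ± 0.065 (SE) at 8 h, which missed the 1.4-fold limit (adjusted p = 2.28e-05), and -0.51 ± 0.065 at 12 h, which passed it (limma adjusted p = 1.45e-05). From 8 h to 12 h it was -0.025 ± 0.065 (limma adjusted p = 0.765), and libraries of those times overlapped. Both changes from M0 lay above the median of all genes, by 0.24 at 8 h and 0.25 at 12 h. The direction turned with median of ratios scaling, to 0.32 at 8 h and 0.34 at 12 h, and stayed lower with quantile normalization, at -0.68 and -0.60. The 1.4-fold call at 12 h was lost without wt M0 replicate 2 (-0.45) or Treml4-/- M1-12 h replicate 1 (-0.47), and at 8 h a call was gained without any of 3 libraries, wt M0 replicate 1 (-0.54), Treml4-/- M0 replicate 2 (-0.49) or Treml4-/- M1-8 h replicate 1 (-0.51).

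Cebpa showed the largest change of the 9 genes. M0 macrophages held 226 and 244 CPM in wt and 213 and 208 CPM in Treml4-/-. At M1-8 h the level was 5.03 and 7.04 CPM in wt and 6.22 and 4.98 CPM in Treml4-/-, and at M1-12 h 2.97 and 3.57 CPM in wt and 3.33 and 4.43 CPM in Treml4-/-. The 3 times did not overlap, with each later library below each earlier one. The log2 change was -5.04 ± 0.11 at 8 h (33.0-fold lower, limma adjusted p = 5.71e-12) and -5.62 ± 0.11 at 12 h (49.1-fold lower, adjusted p = 2.66e-12), and it stayed at -4.28 and -4.83 with median of ratios scaling. Of all 12086 tested genes, 0.314% fell further at 8 h and 0.190% at 12 h. The further fall from 8 h to 12 h was -0.57 ± 0.11 (limma adjusted p = 0.00123), and without wt M1-8 h replicate 2 it was -0.47, under the 1.4-fold limit.

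Cebpb, the LPS-responsive relative, moved the opposite way. It was at 57.3 and 52.8 CPM in wt and 44.2 and 55.9 CPM in Treml4-/- M0 libraries, and at 190.0 and 157 CPM in wt and 146 and 158 CPM in Treml4-/- at M1-8 h. At M1-12 h the values were 168 and 172 CPM in wt and 148 and 175 CPM in Treml4-/-. All LPS libraries lay above all M0 libraries, while those of 8 h and 12 h overlapped. Cebpb changed by a log2 value of 1.61 ± 0.092 at 8 h (3.06-fold, limma adjusted p = 9.95e-09) and 1.64 ± 0.092 at 12 h (3.12-fold, adjusted p = 7.91e-09), with 0.029 ± 0.092 between the 2 LPS times (adjusted p = 0.802). Median of ratios scaling gave 2.40 at 8 h and 2.48 at 12 h. Tmem189, which shares exonic bases with Cebpb, was at 250.4 to 265 CPM in M0 and 188 to 216 CPM at M1-8 h. At M1-12 h it was at 310.4 to 339 CPM, so it was below M0 at 8 h and above M0 at 12 h. Its part in the Cebpb values was not tested.

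Cebpd had a low level and a transient course. It was at 7.54 and 8.85 CPM in wt and 5.05 and 6.27 CPM in Treml4-/- M0 libraries, and at 13.2 and 10.9 CPM in wt and 9.37 and 9.15 CPM in Treml4-/- at M1-8 h. At M1-12 h it was down to 0.633 and 0.834 CPM in wt and 0.583 and 0.920 CPM in Treml4-/-. The 3 times did not overlap: 8 h was highest and 12 h lowest. The log2 change was 0.57 ± 0.11 at 8 h (limma adjusted p = 0.000343), -2.17 ± 0.11 at 12 h (adjusted p = 2.65e-09) and -2.73 ± 0.11 from 8 h to 12 h (6.65-fold lower, adjusted p = 1.77e-08). Only 0.0579% of the tested genes fell further between 8 h and 12 h. The size of the changes from M0 depended on the scaling, at 1.26 (8 h) and -1.57 (12 h) with median of ratios and 1.48 and -1.32 with quantile normalization, all in the same direction and past the test. These log2 values understate a fall to levels near the pseudocount of 1 CPM. Spidr, the overlapping gene, was at 17.8 to 31.8 CPM in M0, 11.4 to 17.7 CPM at M1-8 h and 14.1 to 16.1 CPM at M1-12 h.

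Maf, the gene of c-Maf, which is known to drive Il10 in macrophages, rose more than any other of the 9 genes. It was at 28.4 and 27.5 CPM in wt and 21.5 and 28.1 CPM in Treml4-/- M0 libraries. At M1-8 h it was at 154 and 126 CPM in wt and 186 and 221 CPM in Treml4-/-, and at M1-12 h at 224 and 174 CPM in wt and 232 and 208 CPM in Treml4-/-. All LPS libraries were above all M0 libraries. Its log2 change was 2.64 ± 0.11 at 8 h (6.22-fold, limma adjusted p = 8.22e-10) and 2.94 ± 0.11 at 12 h (7.69-fold, adjusted p = 3.35e-10), or 3.41 and 3.77 with median of ratios scaling. From 8 h to 12 h it was 0.31 ± 0.11, below the 1.4-fold limit (adjusted p = 0.0346), and the libraries of those times overlapped.

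Bhlhe40, a basic helix-loop-helix repressor known to hold down Il10, dipped at 8 h. Its M0 levels were 31.2 and 39.7 CPM in wt and 36.7 and 36.6 CPM in Treml4-/-, its M1-8 h levels 17.0 and 25.9 CPM in wt and 17.2 and 13.8 CPM in Treml4-/-, and its M1-12 h levels 31.2 and 35.2 CPM in wt and 28.8 and 30.1 CPM in Treml4-/-. The 8 h libraries lay below all others, and those of M0 and 12 h overlapped. The log2 change was -0.96 ± 0.13 at 8 h (limma adjusted p = 2.04e-05), while median of ratios scaling gave -0.19 and quantile normalization -0.28, neither of which passed the test. At 12 h it was -0.20 ± 0.13 (adjusted p = 0.167), and the direction turned to 0.63 with median of ratios scaling, where it passed, and to 0.46 with quantile normalization, where it missed the 1.4-fold limit. The rise from 8 h to 12 h was 0.76 ± 0.13 (limma adjusted p = 0.000380), at 0.82 and 0.74 with those scalings.

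The Egr genes, whose products bind the same GC-rich element, went in opposite directions. Egr2 was at 32.1 and 56.1 CPM in wt and 36.8 and 40.9 CPM in Treml4-/- M0 libraries, at 4.10 and 3.69 CPM in wt and 4.72 and 4.01 CPM in Treml4-/- at M1-8 h, and at 2.03 and 1.81 CPM in wt and 2.999 and 3.25 CPM in Treml4-/- at M1-12 h. The 3 times did not overlap. Its log2 change was -3.02 ± 0.15 at 8 h (8.13-fold lower, limma adjusted p = 2.30e-09), -3.58 ± 0.15 at 12 h (12.0-fold lower, adjusted p = 5.39e-10) and -0.56 ± 0.15 between them (adjusted p = 0.00613). With median of ratios scaling the changes from M0 were -2.29 and -2.83. Egr1 was the least abundant of the 9 in M0, at 0.906 and 1.73 CPM in wt and 1.14 and 1.31 CPM in Treml4-/-. It was at 5.17 and 3.79 CPM in wt and 4.55 and 3.84 CPM in Treml4-/- at M1-8 h, and at 3.76 and 4.15 CPM in wt and 2.33 and 2.78 CPM in Treml4-/- at M1-12 h. All LPS libraries were above all M0 libraries for Egr1, and those of 8 h and 12 h overlapped. Its log2 change was 1.24 ± 0.13 at 8 h (2.36-fold, limma adjusted p = 1.95e-06), 0.90 ± 0.13 at 12 h (1.86-fold, adjusted p = 3.33e-05) and -0.34 ± 0.13 between them, below the 1.4-fold limit (adjusted p = 0.0373, limma). Median of ratios scaling gave 1.72 at 8 h and 1.41 at 12 h. The earliest time was 8 h, so a peak of Egr1 within the early hours of LPS was not measured here.

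Klf4, a zinc finger factor of monocyte differentiation, was lower at 8 h than at 12 h in every library. Against M0 it passed the test at 8 h and not at 12 h, with a direction at 8 h that depended on the scaling. It was at 27.5 and 18.5 CPM in wt and 20.8 and 22.1 CPM in Treml4-/- M0 libraries, at 11.5 and 22.3 CPM in wt and 13.6 and 12.2 CPM in Treml4-/- at M1-8 h, and at 27.3 and 42.0 CPM in wt and 26.3 and 30.3 CPM in Treml4-/- at M1-12 h. Wt M1-8 h replicate 2 lay within the M0 range, while the other three 8 h libraries lay below it. The log2 change was -0.58 ± 0.20 at 8 h (limma adjusted p = 0.0159), but the direction turned under other scalings, to 0.18 (median of ratios) and 0.25 (quantile). The 8 h call was lost without wt M0 replicate 1 (-0.44) or wt M1-8 h replicate 1 (-0.35). At 12 h it was 0.47 ± 0.20 (adjusted p = 0.0394), just under the 1.4-fold limit with the pseudocount of 1 CPM. It passed with a pseudocount of 0.1 CPM, the deposited log2 CPM or voom (all 0.49), without wt M0 replicate 1 (0.61), without wt M1-12 h replicate 1 (0.63) and with median of ratios scaling (1.29) or quantile normalization (1.27). The rise from 8 h to 12 h was 1.05 ± 0.20 (2.07-fold, limma adjusted p = 0.000795), and 96.8% of the tested genes had a lower change.

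**Figure D2:**
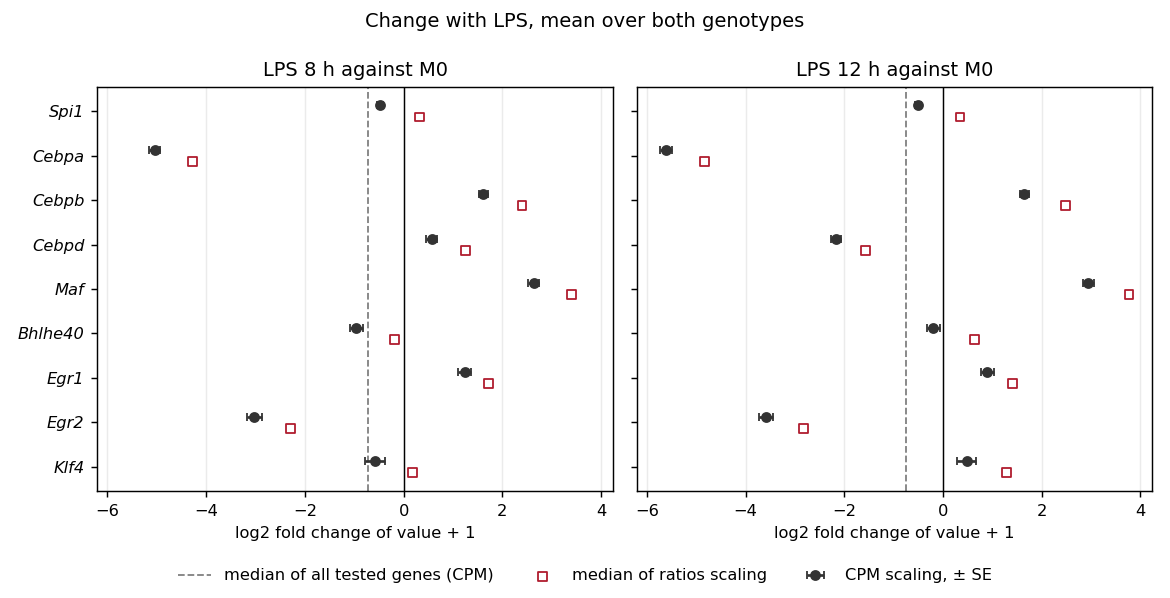
Log2 fold change of each of the 9 genes at 8 h (left) and 12 h (right) of LPS against M0, as the mean over genotypes, with CPM scaling (filled circles, ± SE) and with median of ratios scaling (open squares), and the median of all tested genes with CPM scaling (dashed line, -0.72 and -0.76). Spi1 lies on either side of 0 at both times, Klf4 at 8 h and Bhlhe40 at 12 h, depending on the scaling.

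Per kilobase of exon, the order of the levels changed with LPS. In M0 it was Spi1 (208 ± 16.7 CPM per kb, SD, n = 4), Cebpa (84.4 ± 6.21), Cebpb (34.9 ± 3.90), Egr2 (12.2 ± 3.06), Bhlhe40 (7.66 ± 0.756), Klf4 (7.29 ± 1.25), Maf (3.20 ± 0.396), Cebpd (1.85 ± 0.437) and Egr1 (0.284 ± 0.0776), and the libraries of neighbours overlapped for Bhlhe40 and Klf4 alone. At M1-8 h Spi1 (149 ± 16.6 CPM per kb, SD, n = 4) was followed by Cebpb (108 ± 12.5) and Maf (20.9 ± 4.97), and Cebpa (2.21 ± 0.378) had dropped to the 7th place. Klf4, Bhlhe40 and Cebpd each overlapped the next in order at that time, as did Egr2 and Egr1, while all Cebpa values lay above all Egr2 values. At M1-12 h Spi1 (146 ± 6.20 CPM per kb, SD, n = 4), Cebpb (110.3 ± 8.03) and Maf (25.4 ± 3.13) again led, and Cebpd (0.198 ± 0.0428) was last.

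Ratios of reads within a library do not depend on how libraries are scaled, and 4 pairs were formed after the values above had been seen. There were 0.208 to 0.269 Cebpb reads per Cebpa read in M0, 22.3 to 37.8 at M1-8 h and 39.6 to 56.6 at M1-12 h. Between the Egr genes, 0.0282 to 0.0320 Egr1 reads per Egr2 read in M0 became 0.959 to 1.26 at M1-8 h and 0.778 to 2.30 at M1-12 h. Maf had 0.0394 to 0.0532 reads per Spi1 read in M0, 0.288 to 0.636 at M1-8 h and 0.440 to 0.629 at M1-12 h. Cebpd went from 0.112 to 0.168 reads per Cebpb read in M0 to 0.0578 to 0.0695 at M1-8 h and 0.00376 to 0.00525 at M1-12 h. In each of these pairs the M0 libraries did not overlap those of either LPS time. As the pairs were picked from values already seen, this restates those values and is no separate result.

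**Figure D3:**
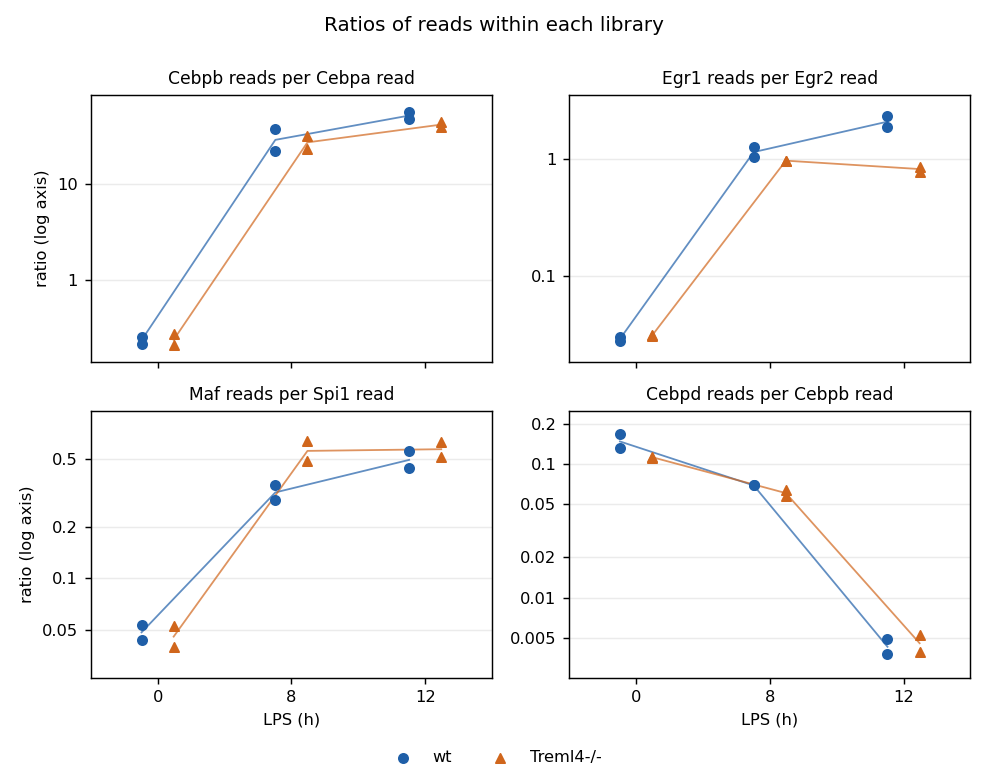
Reads of 1 gene per read of another in the same library (log axes), for 4 pairs, at 0, 8 and 12 h of LPS, with 1 point per library and lines through the geometric means. Cebpb reads per Cebpa read go from 0.208 to 0.269 in M0 to 39.6 to 56.6 at M1-12 h, in both genotypes.

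None of the 9 genes differed between genotypes by the rule above. With limma, 0 of 9 passed in M0 (background 0.0993%), at M1-8 h (background 0.091%) and at M1-12 h (background 0.132%), and 0 of 9 passed in the tests of a different LPS change between genotypes at 8 h or 12 h (background 0.00827% for each). At an unadjusted p under 0.05 the count was 1 of the 9 in M0 against 405 of the 12086 genes, 4 at M1-8 h against 2539, and 2 at M1-12 h against 912. limma's voom on the recovered reads also called 0 of 9 in all 5 tests, and 0 of 9 was found under every alternative run. Log2 differences, wt minus Treml4-/-, ran from -0.057 to 0.47 in M0, from -0.54 to 0.42 at M1-8 h and from -0.50 to 0.48 at M1-12 h, with SEs of 0.092 for Spi1 to 0.28 for Klf4, and with 2 libraries per group these SEs set what could be detected.

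**Figure D4:**
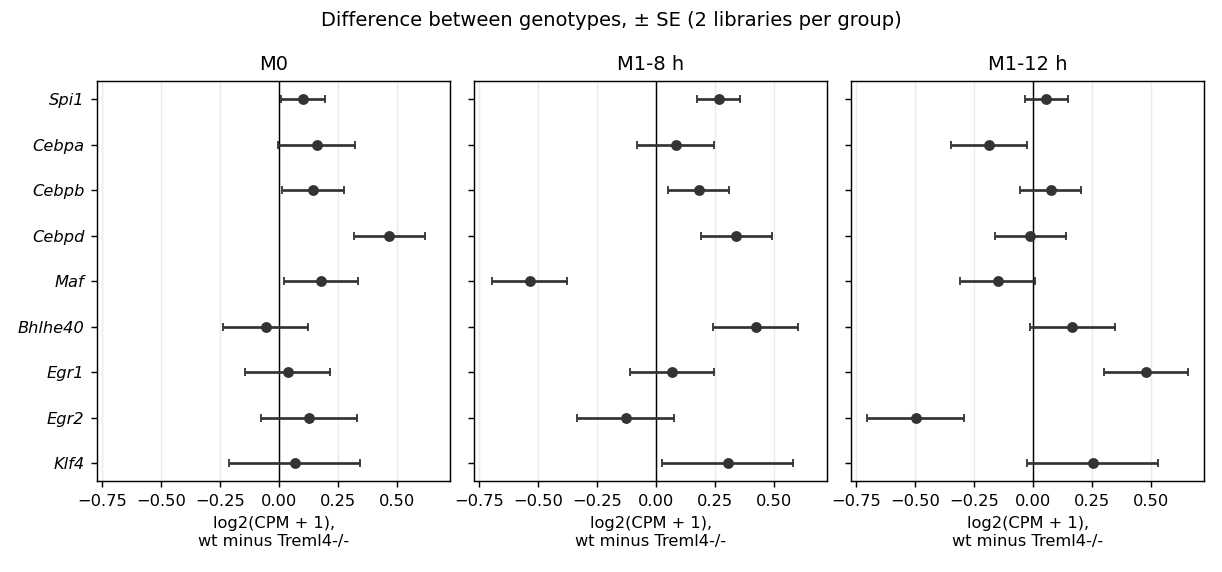
Log2(CPM + 1) difference, wt minus Treml4-/-, for each of the 9 genes in 3 panels (M0 left, M1-8 h centre, M1-12 h right), with bars of ± SE from limma and 2 libraries per group. Points lie between -0.54 (Maf, M1-8 h) and 0.48 (Egr1, M1-12 h), and none passed the test.

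The differences with an unadjusted p under 0.05 are given as values. In M0, Cebpd was 0.47 ± 0.15 higher in wt (limma adjusted p = 1). At M1-8 h, Maf was lower in wt by a log2 difference of -0.54 ± 0.16 (adjusted p = 0.160, limma). Spi1 (0.27 ± 0.092), Bhlhe40 (0.42 ± 0.18) and Cebpd (0.34 ± 0.15) had higher wt values at M1-8 h, with limma adjusted p of 0.176, 0.221 and 0.229. At M1-12 h, Egr1 had a difference of 0.48 ± 0.18 (adjusted p = 0.552, limma) and Egr2 of -0.50 ± 0.21 (adjusted p = 0.614). The LPS change of Maf at 8 h was 2.28 ± 0.16 in wt and 2.99 ± 0.16 in Treml4-/-, a difference of -0.71 ± 0.22 (unadjusted p = 0.00878, limma adjusted p = 0.729). The 12 h change of Cebpd was -2.41 ± 0.15 in wt and -1.93 ± 0.15 in Treml4-/-, a difference of -0.48 ± 0.21 (limma adjusted p = 0.999). For Cebpa and Cebpb, the LPS change at 8 h was nearly the same size in both genotypes, at -5.08 ± 0.16 and -5.01 ± 0.16 for Cebpa and 1.63 ± 0.13 and 1.60 ± 0.13 for Cebpb. At 12 h Cebpa changed by -5.79 ± 0.16 in wt and -5.44 ± 0.16 in Treml4-/-, a difference of -0.35 ± 0.23 (limma adjusted p = 0.999). Cebpb changed by 1.61 ± 0.13 and 1.68 ± 0.13 at that time.

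Of 20 other factors of the myeloid lineage, 16 were tested. At 8 h, 5 rose and 6 fell (median log2 change 0.18, against -0.72 for all genes), at 12 h 2 rose and 8 fell (median -0.54 against -0.76), and from 8 h to 12 h 3 rose and 8 fell (median -0.44 against -0.057). Over all tested genes 17.1% rose and 59.8% fell at 8 h, 16.3% and 60.3% at 12 h, and 13.5% and 18.7% from 8 h to 12 h. With median of ratios scaling the list counts became 9 higher and 3 lower at 8 h and 6 higher and 4 lower at 12 h. Over all 12086 genes that scaling gave 3762 higher and 3791 lower at 8 h, and 3947 and 3942 at 12 h. The largest rises at 8 h were in Gfi1, a transcriptional repressor needed for granulocyte differentiation, Ikzf1, the gene of Ikaros, and Irf8, the monocyte and dendritic cell factor. Gfi1 went from 0.0590 to 0.251 CPM in M0 to 9.84 to 16.7 CPM at M1-8 h (3.48 ± 0.12) and then to 0.434 to 0.973 CPM at M1-12 h. Its M0 level is far below the pseudocount of 1 CPM, so its fitted change depends on that pseudocount. At 12 h Gfi1 was still above M0, by 0.40 ± 0.12, under the 1.4-fold limit, and by 0.60 with median of ratios scaling, where it passed. Ikzf1 went from 68.3 to 85.3 CPM to 359 to 386 CPM (2.34 ± 0.071) and then to 119 to 128 CPM, and Irf8 from 196 to 207 CPM to 647 to 953 CPM (1.96 ± 0.075) and then to 328 to 414 CPM. These 3 thus shared with Cebpd a higher level at 8 h than at 12 h. The largest falls at 8 h were in the ETS factor Fli1 (-3.37 ± 0.16), the LIM protein gene Lmo2 (-2.25 ± 0.060) and the C/EBP partner Cebpg (-1.56 ± 0.12). With median of ratios scaling these 3 falls were -2.65, -1.47 and -0.80, and that of Cebpg at 12 h, -0.98, became -0.16 and no longer passed. Ikzf1 and Irf8 were the 2 that were higher at 12 h, and Cebpg, Fli1 and Lmo2 the 3 that rose from 8 h to 12 h.

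Among 22 other immediate early genes, 19 were tested. At 8 h, 11 rose and 7 fell (median 0.70), at 12 h 9 rose and 7 fell (median 0.26), and from 8 h to 12 h 6 rose and 8 fell (median -0.42). The shares over all tested genes were 17.1% higher and 59.8% lower at 8 h, and 16.3% and 60.3% at 12 h. From 8 h to 12 h they were 13.5% and 18.7%. With median of ratios scaling 12 were higher and 4 lower at both 8 h and 12 h. Over all 12086 genes that scaling gave 3762 higher and 3791 lower at 8 h, and 3947 and 3942 at 12 h. Ier3, a survival gene, rose by 4.56 ± 0.086 at 8 h, from 10.7 to 14.0 CPM in M0 to 272 to 359 CPM. Zfp36, the gene of the mRNA decay factor tristetraprolin, rose by 2.71 ± 0.081, and Fosl1, an AP-1 subunit, by 2.22 ± 0.090 at 8 h and 3.28 ± 0.090 at 12 h. Klf10, from the same family as Klf4, fell by 3.69 ± 0.090 at 8 h, from 51.4 to 57.5 CPM to 2.40 to 4.26 CPM. Myc fell by 2.71 ± 0.12 and Klf2, a further relative of Klf4, by 2.09 ± 0.095. The immediate early genes thus went in both directions at these late times, as Egr1 and Egr2 and the tested genes at large did.

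A list of 20 genes known as targets of the 9 factors was tested in full. At 8 h, 13 rose and 2 fell (median 1.19), at 12 h 12 rose and 3 fell (median 1.11), and from 8 h to 12 h 1 rose, Arg1 (3.45), and 7 fell (median -0.21). The shares over all tested genes were 17.1% higher and 59.8% lower at 8 h, and 16.3% and 60.3% at 12 h. From 8 h to 12 h they were 13.5% and 18.7%. With median of ratios scaling, 17 of the list were higher and 2 lower at 8 h, against 3762 and 3791 of the 12086 tested genes. Nos2, the inducible nitric oxide synthase, went from 3.39 to 6.90 CPM in M0 to 16756 to 19425 CPM at M1-8 h (11.49 ± 0.14). Ptgs2, the inducible cyclooxygenase, went from 0.366 to 1.14 CPM to 1866 to 2909 CPM (10.39 ± 0.15), and Il12b, the shared IL-12 subunit, from 0.0193 to 0.0787 CPM to 261 to 337 CPM (8.19 ± 0.12). The M0 level of Il12b is near the floor of 3 reads (0.0513 to 0.0625 CPM), so its fitted change depends on the pseudocount. The 2 that fell at 8 h were Csf1r, the M-CSF receptor gene that PU.1 is known to drive, at -2.37 ± 0.084, and the lysozyme gene Lyz2 at -1.31 ± 0.11, or -1.57 and -0.51 with median of ratios scaling. Csf1r went from 5521 to 7203 CPM in M0 to 1037 to 1219 CPM at M1-8 h, a larger change than that of Spi1 on the same scale. With median of ratios scaling Spi1 changed in the other direction at 8 h, by 0.32. The third that was lower at 12 h was Mrc1 (-1.79). In none of these 3 lists did a gene pass the limma test between genotypes at any time. The paper, with DESeq2 at the same false discovery and fold limits, called more genes in M1 macrophages. Junb, of the immediate early list, was among those it reported as higher in wt.

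The tested genes whose log2(CPM + 1) had the most similar course were named by Pearson's r over the 12 libraries, as a description, since the libraries share only 3 times and the genes share the library and its depth. For Cebpa they were Gcn1l1 (r = 0.999), Lfng and Zdhhc8, for Egr2 Cd320 (r = 0.997), Bdh2 and Myc, and for Maf Gm1848 (r = 0.997), Dst and Clcn1. For Cebpb they were Gch1 (r = 0.993), Stk40 and Trim14, and for Cebpd Phf8 (r = 0.989), Setd1b and Spata5l1. For Spi1 they were Map3k11 (r = 0.985), Ccdc71 and Btbd9, for Bhlhe40 Ap5b1 (r = 0.977), Trpm4 and Fermt3, for Egr1 Slc24a3 (r = 0.969), Sertad1 and Itpkb, and for Klf4 Akna (r = 0.951), Hsp90ab1 and Mcemp1. Likeness in r did not mean likeness in size: Gcn1l1 changed by -1.42 at 8 h on the log2 scale, while Cebpa changed by -5.04.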

How the data were processed

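The 12 RNA-seq libraries of BMDM fall into 6 groups by genotype and LPS time, each with 2 replicates, as the sample labels give them. The authors prepared stranded poly(A) libraries, aligned reads with STAR to mm10 per the submitters' processing notes, processed them in the CCBR workflow, which lists Subread among its tools, and deposited the values as log2 CPM with a prior of 0.25 reads. The annotation and strand setting of counting are not given in the sources used here. The design had assumed CPM, so deposited log2 values were turned back to CPM. Whole reads were recovered for 100% of values (within 0.1 read). Replicates differed by more than sampling noise (the lowest chi-square divided by its degrees of freedom was 12.0).

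The test was limma (version 3.58.1, R 4.3.3) on log2(CPM + 1), fitted to all libraries together with a mean for every group and with the trend option. It covered 12086 of 43280 genes, those that reached 1 CPM in 2 or more libraries, with Benjamini-Hochberg adjustment over all of them, and calls required a 1.4-fold change together with an adjusted p below 0.05. A fold change is on the log2(CPM + 1) scale, which understates changes of low genes. The authors' DESeq2 model was not rerun, and limma's voom was run on the recovered reads as an alternative. The test was checked on simulated data. Alternatives were other pseudocounts, filters, scalings, a replicate block and each library left out.

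The members, the gene lists and the tests were chosen with earlier results of these data known. Named were the 9 members, Treml4, for each list the 3 called genes with the largest change in each direction at 8 h, and for each member the 3 genes with the highest r; other genes were named after their values were seen. Adgre1 was matched by its older symbol Emr1. Positions are from GENCODE M21 (GRCm38) and promoter windows from RefSeq (GRCm38.p6). Python 3.11.15 with numpy 2.4.6 and pandas 2.3.3 handled the tables.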

Additional observations from a re-analysis of the deposited data

How the results depend on the processing

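The number of the 9 genes called stayed within 1.5 times under every alternative run, at 6 to 9 at 8 h, 6 to 8 at 12 h, 4 to 7 between 8 h and 12 h, and 0 in all genotype comparisons. Of 860 repeats of a single gene's log2 change, 826 kept direction and call, 15 gained the call, 7 lost it and 12 changed sign. Median of ratios scaling turned Spi1 to 0.32 at 8 h, 0.34 at 12 h and 0.026 from 8 h to 12 h, Klf4 to 0.18 at 8 h and Bhlhe40 to 0.63 at 12 h, and quantile normalization turned Klf4 to 0.25 at 8 h, Bhlhe40 to 0.46 at 12 h and Spi1 to 0.081 from 8 h to 12 h. With CPM scaling 2070 genes were higher and 7225 lower at 8 h and 1965 and 7284 at 12 h, against 3762 and 3791, and 3947 and 3942, with median of ratios scaling, and 3362 and 4342, and 3594 and 4338, with quantile normalization. Leaving out 1 library gave -0.039 to 0.098 for Cebpb and -0.057 to 0.0077 for Spi1 from 8 h to 12 h, including values of -0.031 for Cebpb and 0.0064 for Spi1, all without a call.

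Over all genes, dropping the 1.4-fold limit gave 7291 in place of 3885 called from 8 h to 12 h. Genotype counts were 12 in M0, 11 at 8 h and 16 at 12 h. A fit of the compared groups alone gave 7, 5 and 8, no filter on low values gave 7 at 8 h and 7 at 12 h, and voom gave 10 at 12 h. Leaving out 1 library gave 7 to 220 in M0 (220 without wt M0 replicate 1), 8 to 599 at 8 h (599 without Treml4-/- M1-8 h replicate 1) and 6 to 79 at 12 h (79 without wt M1-12 h replicate 1). The interaction called 1 gene at each time, 0 with the deposited log2 values or voom, 2 without a filter at 8 h, 2 with quantile normalization at 12 h, and 1 to 3 at 8 h and 1 to 33 at 12 h with 1 library left out (33 without wt M0 replicate 1). The cause of these changes was not tested.

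Replicate numbers are shared between groups, but no source says that they pair libraries, and with 2 replicates the correlation of deviations was -0.26 to 0.30 between genotypes at the same time and -0.27 to 0.46 between times of the same genotype. A replicate block called 8 of the 9 genes at 8 h, 7 at 12 h and 5 between them, with 9297, 9252 and 3889 genes in all, and changed no call of a gene named among the 9. Egr1 was not tested with the 5 CPM filter. At this depth Egr1 and, at 12 h, Cebpd rest on the lowest levels of the 9, and limits of 3 reads (0.0513 to 0.0625 CPM) cover counting error only.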

Other observations

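Some pairs of replicates stood apart in more than 1 of the 9 genes. In M0, wt replicates 1 and 2 were at 32.1 and 56.1 CPM for Egr2, at 0.906 and 1.73 CPM for Egr1 and at 27.5 and 18.5 CPM for Klf4, while the Treml4-/- replicates were at 36.8 and 40.9 CPM, 1.14 and 1.31 CPM, and 20.8 and 22.1 CPM. At M1-8 h, wt replicates 1 and 2 were at 17.0 and 25.9 CPM for Bhlhe40 and at 11.5 and 22.3 CPM for Klf4. The number of Egr1 reads per Egr2 read was 0.0282 and 0.0308 in these wt M0 libraries, so the ratio was close although the levels of both genes differed.

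At M1-12 h the number of Egr1 reads per Egr2 read was 1.85 and 2.30 in wt and 0.778 and 0.856 in Treml4-/- libraries, and at M1-8 h it was 1.26 and 1.03 in wt and 0.964 and 0.959 in Treml4-/-. The pair was formed after the values were seen, and the difference between genotypes in this ratio was not tested.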
